A study of Schizosaccharomyces pombe with 3 samples.

Results

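The introns described here are the first and second introns of fission yeast genes with exactly 2 lines in the deposited junction table. Of the 671 such genes, 511 were kept because both introns had more than 10 reads at all 3 times, which gave 1022 introns out of the 5374 lines and 511 of the 2548 genes in the table. The introns of a gene were ordered 5’ to 3’ and compared as a pair, so both members of a pair belong to the same gene and the same library. The remaining 160 genes fell below the minimum. The pairs just inside it (12 genes with 11 reads in their weakest count) had a median difference in splicing, first minus second intron on the log2 scale explained below, of -0.18 at 30 min, and the pairs just outside (11 genes with 10 reads) one of 0.67.

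All cells carried *prp4-as2*, an allele of the Prp4 kinase gene that makes the kinase sensitive to the ATP analogue 1NM-PP1. The samples were untreated cells (0 min), cells treated with 1NM-PP1 for 30 min and cells treated for 60 min, with 1 library each. The strain is a conditional mutant, its untreated cells carry the allele too, and a strain without the allele was not analysed here. Each time has 1 library and the spread of cultures is unknown, so differences are described without p-values, and time in culture and time with the inhibitor cannot be told apart.

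Pre-mRNA splicing removes introns after the 5’ splice site (5’ SS) has paired with snRNA U1 and the branch sequence with snRNA U2. Prp4 is a kinase that acts when the assembled spliceosome is activated, the step at which U1 and U4 leave and U6 takes over the 5’ SS. Most fission yeast introns are short, and the splice sites are thought to be recognised across each intron.

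At each 5’ exon junction, split reads join exon to exon and stand for spliced RNA, and unsplit reads run into the intron and stand for unspliced RNA. The Relative Splicing Efficiency Index (RSEI) is the log2 of split over unsplit reads with 1 added to both, so a negative RSEI means more unsplit than split reads. The unspliced share is the percentage of unsplit reads among all reads of a junction, given with its exact 95% Clopper-Pearson interval. Intervals are called separate where they do not overlap. They cover only the counting error of independent reads. Reads amplified by PCR are not independent molecules, so the intervals may be too narrow. An interval after a share of genes is the same exact 95% interval taken over genes. It treats genes as independent, which they are not, and serves as description only. The libraries held 910440, 852562 and 743457 junction reads at 0, 30 and 60 min. The median first intron of the pairs had 97, 97 and 89 reads at these times and the median second intron 91, 92 and 80.

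The introns of 7 pairs are shown because their reads differed widely within the gene. Of these, 6 belong to the pairs with the largest differences at 30 min and have 2 introns of at most 100 nt. The seventh is *mrp17*, which encodes a protein of the small mitochondrial ribosomal subunit. Each sequence starts with the last 3 exon bases and ends with the intron. Capitals mark positions -3 to +6 around the 5’ SS, the branch pentamer and the last 3 intron bases. Sequences and positions are those of RefSeq assembly ASM294v3, with T for U.

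*SPBC13G1.14c* (chrII:3727811-3727879 and chrII:3727658-3727707, minus strand, both coding) encodes a putative RNA-binding protein, and at 30 min its first intron was the less spliced.
SPBC13G1.14c first: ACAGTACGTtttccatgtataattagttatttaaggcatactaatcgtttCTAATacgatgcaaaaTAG
SPBC13G1.14c second: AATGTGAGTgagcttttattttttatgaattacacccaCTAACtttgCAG

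*ell1* (chrII:2030796-2030873 and chrII:2030487-2030589, minus strand, both coding) encodes an elongation factor of RNA polymerase II, and its first intron was the less spliced.
ell1 first: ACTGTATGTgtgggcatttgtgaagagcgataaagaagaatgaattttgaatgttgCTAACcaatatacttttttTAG
ell1 second: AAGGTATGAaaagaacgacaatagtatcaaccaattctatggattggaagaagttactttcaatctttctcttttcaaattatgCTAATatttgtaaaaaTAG

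*acp1* (chrI:4585322-4585370 and chrI:4585562-4585628, plus strand, both coding) encodes a subunit of the protein that caps actin filaments, and its first intron was the less spliced.
acp1 first: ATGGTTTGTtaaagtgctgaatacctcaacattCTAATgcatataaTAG
acp1 second: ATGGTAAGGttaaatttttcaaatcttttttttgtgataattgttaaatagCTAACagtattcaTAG

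*prp10* (chrI:4336727-4336780 and chrI:4336556-4336624, minus strand, both coding) encodes the fission yeast SF3B1, a U2 snRNP protein, and its second intron was the less spliced.
prp10 first: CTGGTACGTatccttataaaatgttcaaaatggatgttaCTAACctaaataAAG
prp10 second: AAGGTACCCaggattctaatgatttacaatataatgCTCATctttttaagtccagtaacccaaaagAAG

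*pst2* (chrI:2160600-2160648 and chrI:2160827-2160907, plus strand, both coding) encodes a subunit of a Clr6 histone deacetylase complex, and its second intron was the less spliced.
pst2 first: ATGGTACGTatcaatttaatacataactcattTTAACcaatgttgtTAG
pst2 second: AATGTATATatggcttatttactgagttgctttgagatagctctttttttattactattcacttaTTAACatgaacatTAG

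*SPBC4B4.01c* (chrII:3412554-3412609 and chrII:3412393-3412467, minus strand, both coding) encodes a pantothenate kinase, and its second intron was the less spliced.
SPBC4B4.01c first: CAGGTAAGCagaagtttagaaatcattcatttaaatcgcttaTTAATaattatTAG
SPBC4B4.01c second: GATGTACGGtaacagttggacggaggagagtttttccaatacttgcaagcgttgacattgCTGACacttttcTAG

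*mrp17* (chrI:1653607-1653726 and chrI:1653307-1653358, minus strand, both coding) had the less spliced intron in first place.
mrp17 first: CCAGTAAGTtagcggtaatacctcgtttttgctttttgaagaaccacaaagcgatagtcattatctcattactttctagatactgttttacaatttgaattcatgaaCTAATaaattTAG
mrp17 second: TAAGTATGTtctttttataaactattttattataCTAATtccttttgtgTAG

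First and second introns of these genes had nearly the same median splicing, before and during inhibition. In untreated cells the median RSEI was 3.46 for first introns and 3.47 for second introns, and the median unspliced share was 6.94% and 6.90%, first and second. After 30 min the median RSEI was 0.51 in first introns and 0.58 in second introns, with median unspliced shares of 40.9% and 39.4%. After 60 min it was 1.44 in first introns and 1.39 in second introns, with unspliced shares of 26.1% and 26.7%. The difference within a gene, first minus second RSEI, had a median of 0.07 at 0 min, 0.06 at 30 min and -0.07 at 60 min.

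**Figure D1:**
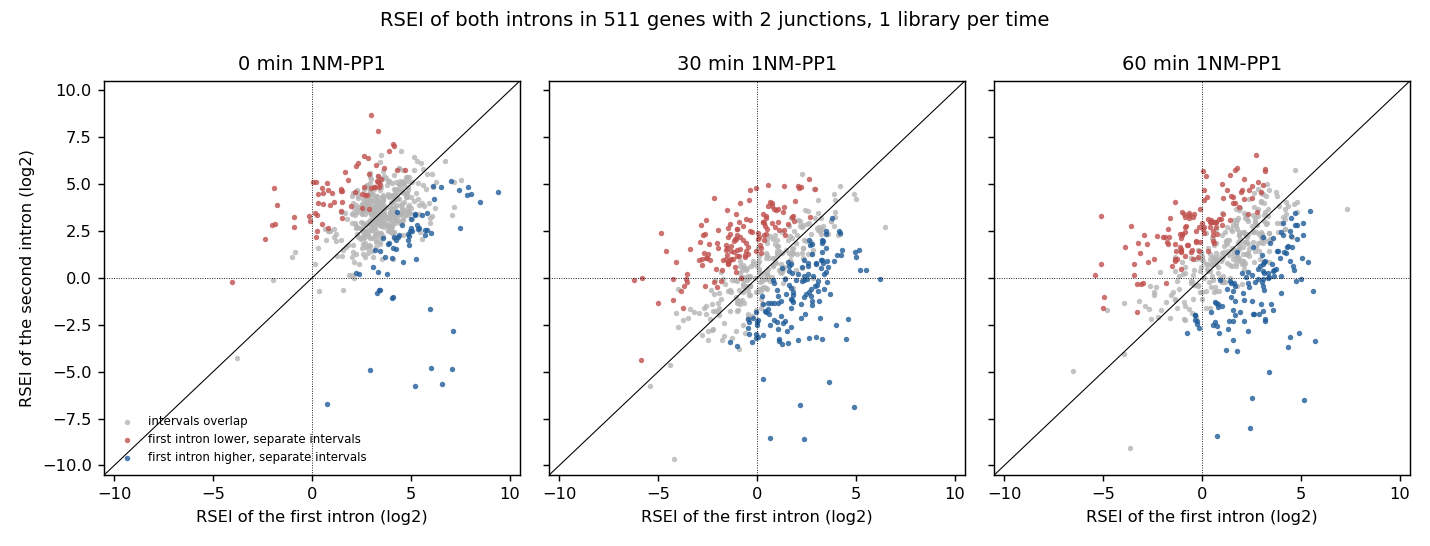
RSEI (log2 of split over unsplit reads) of the second intron against that of the first intron at 0, 30 and 60 min, 1 point per gene and 1 library per time. Grey points have overlapping intervals, red points a less spliced first intron and blue points a less spliced second intron, and at 30 min 138 points are red and 138 blue.

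Within single genes the 2 introns often differed. The quartiles of the first minus second RSEI were -1.21 and 1.21 in untreated cells, -1.74 and 1.71 at 30 min, and -1.73 and 1.56 at 60 min. The median size of the difference was 5.50 percentage points of unspliced share at 0 min, 22.6 at 30 min and 19.4 at 60 min. Thus the gap between the introns of a gene was wider at 30 and 60 min than at 0 min, while at 30 min first and second introns were the less spliced equally often. At 30 min the intervals of the 2 introns were separate in 276 of the 511 pairs (54.0%, 49.6 to 58.4), with the first intron less spliced in 138 and more spliced in 138 (27.0% each).

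For comparison, introns I and II of 510 genes with 3 or more junctions were read in the same way. They had separate intervals in 52.5% of genes at 30 min, with intron I lower in 23.9% and higher in 28.6%. In untreated cells 132 pairs of the 2-intron genes (25.8%, 22.1 to 29.9) had separate intervals, next to 22.0% of the genes with more junctions. The first intron was lower in 67 of these pairs and higher in 65. At 60 min there were 247 such pairs (48.3%, 43.9 to 52.8), next to 46.7%, and the first intron was lower in 125 and higher in 122. The 2-intron genes were thus close to this background at 30 and 60 min and somewhat above it at 0 min. In the 496 genes whose annotated model has exactly 2 introns, the share at 0 min was 24.2% (20.5 to 28.2). The medians of the difference in the genes with more junctions were -0.01, 0.22 and 0.19 at 0, 30 and 60 min.

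The introns of a gene resembled each other weakly. Across the 511 genes, first and second RSEI had a Pearson r of 0.17 and a Spearman rho of 0.21 at 0 min, 0.25 and 0.26 at 30 min, and 0.25 and 0.26 at 60 min. In the 496 genes whose model has exactly 2 introns, they were 0.23 and 0.24, 0.30 and 0.30, and 0.28 and 0.29 at these times. Introns I and II of the genes with 3 or more junctions had 0.20 and 0.21, 0.29 and 0.29, and 0.30 and 0.31. These are correlations across genes that share a library, and genes are not independent replicates. Reads of the 2 introns of a gene also differed: at 30 min first and second introns differed at least 2-fold in their reads in 237 genes, so the depth of the members of a pair is often unequal.

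Nearly all introns moved in the same direction between 0 and 30 min. Between these times the RSEI fell in both introns of 488 genes, and the median change was -2.94 in first introns and -2.87 in second introns. The unspliced share was higher at 30 min with separate intervals in 730 of the 1022 introns, next to 69.1% of all kept junctions of the table. In 274 genes this held for both introns, in 98 for the first alone, in 84 for the second alone and in 55 for neither. No intron of the pairs was less unspliced at 30 min with separate intervals. The changes of the 2 introns of a gene had a Pearson r of 0.26 and a Spearman rho of 0.26 across genes.

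Most pairs with separate intervals at 30 min had overlapping intervals in untreated cells. Overlap does not show that the introns were equal, since unsplit reads were few at 0 min. These counts were not made in the genes with more junctions. Of the 138 genes whose first intron was lower at 30 min with separate intervals, 45 had that call at 0 min, 92 had overlapping intervals and 1 the opposite call. Of the 138 with the first intron higher, 49 had that call at 0 min, 84 had overlapping intervals and 5 the opposite call. From 30 to 60 min none of these calls was reversed. The call was the same at 60 min in 105 of the 138 genes with a lower first intron. It was also the same in 105 of the 138 with a higher first intron. The others had overlapping intervals at 60 min, so their order was not settled.

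Read by sign, 37.2% of the genes held an intron on each side of 0 at 30 min. In untreated cells 481 of the 511 genes had 2 introns with a positive RSEI. At 30 min 208 genes had 2 positive introns, 105 had 2 negative introns, 95 were negative in the first intron only and 95 in the second only, and 8 had a RSEI of exactly 0. The 190 genes with opposite signs made up 37.2% (33.0 to 41.5), next to 37.1% for introns I and II of genes with more junctions. At 0 min 26 genes had opposite signs (5.09%), next to 3.73%, and at 60 min 158, next to 29.6%. The count at 0 min rests in part on junctions without an annotated intron, since in the 496 genes whose model has exactly 2 introns it was 16 (3.23%). First introns were negative in 204 genes and second introns in 202 at 30 min, next to 39.4% of all kept junctions. At 0 min these numbers were 14 and 18, next to 2.81%, and at 60 min 134 and 135, next to 26.3%. Among the 496 genes they were 10 and 10 at 0 min.

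**Figure D2:**
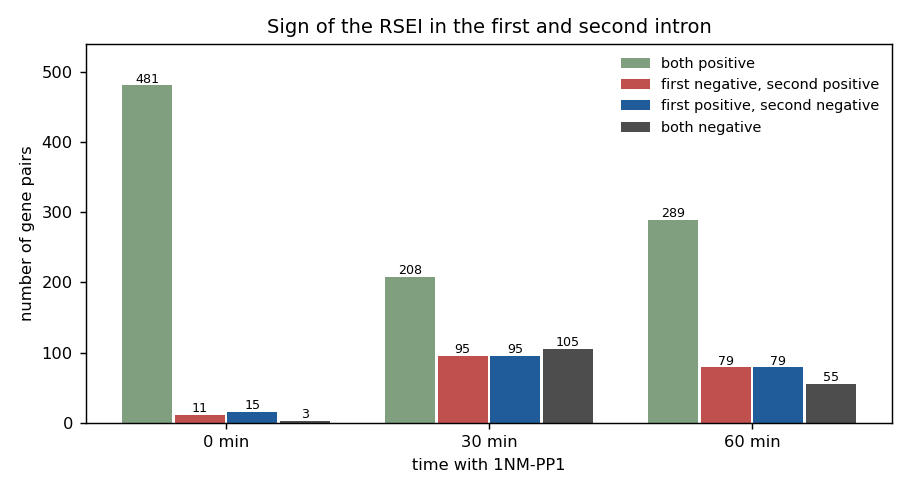
Number of genes by the sign of the RSEI in the first and second intron at 0, 30 and 60 min, with genes at exactly 0 left out. The classes with a negative first or a negative second intron are equal at 30 min (95 and 95) and at 60 min (79 and 79).

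A negative RSEI in the first intron went with a negative second intron more often than a positive one did. At 30 min the second intron was negative in 105 of the 204 genes with a negative first intron (51.5%, 44.4 to 58.5) and in 95 of the 305 genes with a positive first intron (31.1%, 26.0 to 36.7). Of the 190 genes with opposite signs, 156 had separate intervals, and in 105 the interval of an intron lay wholly above 50% unspliced and that of the other wholly below. In the remaining genes the depth did not settle on which side of 0 an intron lay.

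Between 30 and 60 min the RSEI rose in both introns of 381 genes. The changes of the first and second intron had a Pearson r of 0.01 and a Spearman rho of 0.04 across genes. The unspliced share was lower at 60 min with separate intervals in 182 of the 1022 introns, next to 17.1% of all kept junctions. Both introns met this in 22 genes, the first alone in 78, the second alone in 60 and neither in 351. Of the 190 genes with opposite signs at 30 min, 72 had 2 positive introns at 60 min and 111 still had opposite signs, with the same intron negative in all 111. Of the 105 genes with 2 negative introns, 9 had 2 positive introns at 60 min, 41 had opposite signs and 53 were still negative in both.

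Among pairs with at least 30 reads in every count (334 genes), the 8 with the lowest and the 8 with the highest first minus second RSEI at 30 min were taken for a closer view. These were chosen by that value, so their size at 30 min is a description. In 14 of the 16, both introns match the annotated gene model.

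Among the pairs with the less spliced intron in first place, the unspliced share at 30 min lay between 50.6% and 100% in first introns and between 3.07% and 52.0% in second introns. *SPAC458.02c*, annotated as an mRNP complex protein, had 105 split and 22 unsplit reads in its first intron at 0 min, 32 and 147 at 30 min, and 37 and 97 at 60 min. Its second intron had 505 and 7, 289 and 14, and 232 and 13, so that the unspliced share at 30 min was 82.1% (75.7 to 87.4) in the first and 4.62% (2.55 to 7.63) in the second intron. The intervals of the 2 introns were separate at all 3 times in this gene.

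In *SPBC13G1.14c* no split read was left in the first intron at 30 min. The split and unsplit reads of this intron were 52 and 37 at 0 min, 0 and 74 at 30 min, and 1 and 69 at 60 min. The second intron had 93 and 12, 60 and 65, and 67 and 40. The unspliced share at 30 min was 100% (95.1 to 100) in the first intron, against 52.0% (42.9 to 61) in the second, and both introns were more unspliced than at 0 min with separate intervals.

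*ell1*, shown above, had unspliced shares of 17.2%, 88.0% and 65.5% in its first intron at 0, 30 and 60 min and of 2.70%, 11.7% and 7.46% in its second. The elongation factor gene thus had 22 split and 162 unsplit reads at 30 min in the first intron but 83 and 11 in the second. *SPAC926.08c* encodes the Brix domain protein Rpf2, a factor of ribosome assembly. Its introns were alike in untreated cells, with 1.72% (0.209 to 6.09) unspliced in the first and 3.61% (1.34 to 7.70) in the second. At 30 min the shares were 75% (64.6 to 83.6) and 7.01% (3.55 to 12.2), first and second, and at 60 min 51.6% and 6.67%. Its intervals were thus separate at 30 and 60 min and overlapped at 0 min.

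*pre6* encodes the alpha 4 subunit of the 20S proteasome. Its first intron had 318 split and 17 unsplit reads at 0 min, 169 and 217 at 30 min, and 184 and 161 at 60 min, and its second 533 and 3, 336 and 12, and 302 and 6. The intervals were separate at every time, and the difference in RSEI was -2.91 at 0 min and -5.06 at 30 min. *SPAC16C9.01c*, annotated as a carbohydrate kinase, had a first intron that was already 48.9% unspliced in untreated cells, against 2.33% of the second, and 87.3% and 15.3% at 30 min. In *acp1* the unspliced share at 30 min was 65.3% (53.5 to 76.0) in the first and 5.61% (3.55 to 8.37) in the second intron. *rlp24*, a gene of ribosome biogenesis, had 50.6% (45.0 to 56.3) unspliced reads in the first intron and 3.07% (1.24 to 6.22) in the second at 30 min, when the second intron had moved little from its 4.02% at 0 min.

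Among the matched pairs with the less spliced intron in second place, the unspliced share at 30 min lay between 0.901% and 10.7% in first introns and between 51.5% and 90.8% in second introns. *trm8* encodes the catalytic subunit of a tRNA methyltransferase. Its first intron had 87 split and 2 unsplit reads at 0 min, 88 and 8 at 30 min, and 88 and 2 at 60 min, while the second had 206 and 40, 35 and 340, and 34 and 270. The first intron of *trm8* stayed spliced in nearly all reads, and the second was 90.7% (87.3 to 93.4) unspliced at 30 min. In *pst2* the unspliced share at 30 min was 4.17% (0.509 to 14.3) in the first and 85.6% (79.2 to 90.7) in the second intron, and at 60 min 2.27% and 90.5%. *ppp1*, which encodes a pescadillo family protein of ribosome biogenesis, had overlapping intervals at 0 min, with 15.8% (6.02 to 31.3) unspliced in the first and 28.3% (16.0 to 43.5) in the second intron. At 30 min the shares of *ppp1* were 10.7% and 90.8%, first and second, and the intervals of the first intron at 0 and 30 min overlap.

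*SPBC4B4.01c* had 9.55% (5.85 to 14.5) unspliced reads in the first and 82.4% (71.8 to 90.3) in the second intron at 30 min. *rps2501* encodes a protein of the small ribosomal subunit. Its first intron had 262 split reads and no unsplit read at 0 min, 220 and 2 at 30 min, and 189 and 5 at 60 min, against 466 and 20, 334 and 354, and 267 and 274 in the second. The second intron of this ribosomal protein gene was thus at 51.5% (47.6 to 55.2) unspliced where the first was at 0.901% (0.109 to 3.22). *rps2501* has a near copy, *rps2502*, and only uniquely mapped reads were counted, so reads from sequence that both genes share cannot be assigned. The introns of *rps2502* were 9.35% and 13.9% unspliced at 30 min, first and second, with overlapping intervals.

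*prp10* stood apart because its second intron was retained without inhibitor. The first intron had 139 split reads and no unsplit read at 0 min, 249 and 10 at 30 min, and 208 and 3 at 60 min. The second intron had 29 and 216, 46 and 454, and 32 and 333, an unspliced share of 88.2% (83.4 to 91.9), 90.8% (87.9 to 93.2) and 91.2% (87.8 to 93.9). The intervals of the second intron overlap at the 3 times, so no change of its splicing with the inhibitor was detectable at this depth.

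**Figure D3:**
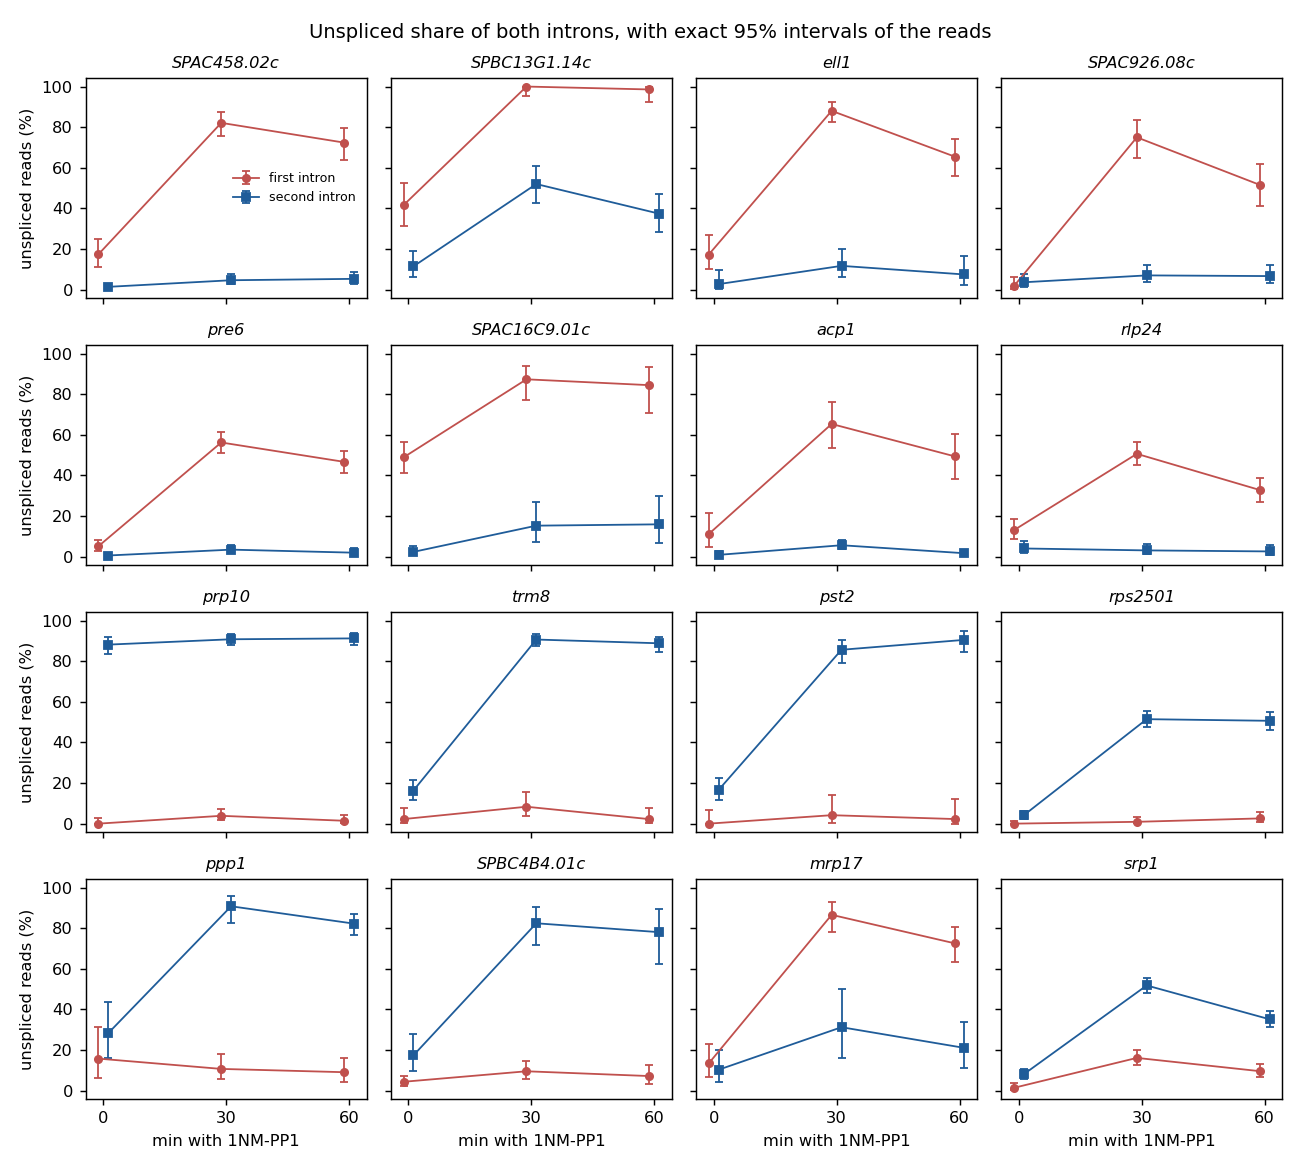
Unspliced share (percent of reads) of the first intron (red circles) and second intron (blue squares) at 0, 30 and 60 min in the 14 matched pairs with the largest differences at 30 min, and in *mrp17* and *srp1*. Bars are exact 95% intervals of the reads of 1 library, and in each panel the introns differ at 30 min by more than these bars.

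In the other 2 of the 16 pairs, *rpl701* and *SPAC29A4.02c*, the second junction has no annotated intron in the reference used here and no split read at any time. *SPAC29A4.02c* encodes the gamma subunit of elongation factor EF-1, and its second junction had 0 split reads among 53, 364 and 346 at 0, 30 and 60 min. *rpl701*, a gene for a protein related to ribosomal protein L7, had 0 split among 49, 383 and 256. Their first introns were spliced, with a RSEI at 30 min of 0.67 in *SPAC29A4.02c* and 2.38 in *rpl701*. In all, 15 junctions in 13 genes did not match an annotated 5’ SS, 12 of them had a negative RSEI in untreated cells, and 6 had no split read at any time. The other 4 of these 6 are second junctions of *ade4*, *rlp7*, *rps3* and *fta3*, named after their values were seen. A RSEI of a junction without a split read depends on the 1 added to the count of 0.

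Of the member genes that the study names, *ade2* encodes adenylosuccinate synthetase of purine synthesis. Its unspliced share was 8.45%, 43.5% and 37.0% in the first intron and 3.22%, 16.9% and 16.2% in the second at 0, 30 and 60 min, with separate intervals at each time. *rpb5* encodes a subunit shared by the RNA polymerases. Its introns differed at 0 min, with 5.50% (2.05 to 11.6) in the first and 0.68% (0.141 to 1.98) in the second, but not detectably at 30 min, with 15.5% (7.35 to 27.4) and 11.9% (6.93 to 18.5).

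In *mrp17* the first intron had 71 split and 11 unsplit reads at 0 min, 13 and 84 at 30 min, and 31 and 82 at 60 min. The second had 61 and 7, 22 and 10, and 45 and 12. The intervals overlapped in untreated cells and were separate at 30 min, with 86.6% (78.2 to 92.7) unspliced in the first and 31.2% (16.1 to 50) in the second intron. *srp1* encodes an SR protein, a class of splicing regulators. Its second intron was the less spliced at all 3 times, and the unspliced share was 1.40%, 16.1% and 9.60% in the first intron and 8.07%, 51.8% and 35.1% in the second.

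Some pairs were low or high in both introns. *pot1*, which encodes a telomere protein of the shelterin complex, had no split read in either intron at 30 min, with 41 unsplit reads in the first and 53 in the second. At 60 min 1 split read was found in each, among 31 and 33 reads. *uap2*, a gene of the U2 snRNP, had 13 split and 226 unsplit reads in its first intron and 5 and 36 in its second at 30 min, and its first intron was 80.9% (72.3 to 87.8) unspliced without inhibitor. *SPBPB21E7.08*, which has no annotated intron in the reference, had 98.5% and 95.5% unsplit reads at its 2 junctions at 30 min.

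At the other end, *yop1*, *rpl3802*, *tif45* and *spd2* had the highest mean RSEI at 30 min. *yop1* encodes a membrane protein that shapes the endoplasmic reticulum, and its unspliced share at 30 min was 1.69% (0.0429 to 9.09) in the first and 4.07% (2.29 to 6.62) in the second intron. *tif45* encodes the cap-binding factor eIF4E and had 4.60% and 3.09%. *spd2* belongs to the family of ribonucleotide reductase inhibitors. Its introns of 199 and 185 nt are parted by an exon of 8 nt, and its shares of 6.02% (3.24 to 10.1) and 3.95% (1.82 to 7.36) overlapped.

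The difference between the introns moved most between 30 and 60 min in *erg27*, *SPCC18.15*, *SPAC167.09* and *pmo25*, where first minus second RSEI rose, and in *SPAC222.18*, *kms1*, *iec5* and *mob1*, where it fell. In *erg27*, a gene of sterol synthesis, the first intron had 35 split and 47 unsplit reads at 30 min and 62 and 23 at 60 min, against 123 and 6, then 108 and 12 in the second. The difference was -4.56 at 30 min and -1.68 at 60 min, so the first intron drew nearer to the second. In *kms1*, which encodes a protein of the spindle pole body and nuclear envelope, the first intron was 87.2% and 94.1% unspliced at 30 and 60 min and the second 79.6% and 47.6%. The intervals of the second intron at these times were separate, and those of the first overlapped. *mob1*, a gene for a kinase regulator of septation, had 28.5% and 21.7% in the first intron and 41.4% and 7.89% in the second. In *iec5*, encoding a subunit of the Ino80 chromatin remodeller, the first intron was 83.1% and 89.9% unspliced at these times and the second 77.7% and 54.5%.

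The pairs were also grouped by function, and each list is described by its counts and its median. Over all 511 pairs the median difference at 30 min was 0.06, 27.0% were called in each direction, 39.9% of first and 39.5% of second introns were negative, and 40.7% of pairs were positive in both introns. The lists hold only 9 to 23 pairs. Members were assigned by the annotation text. No list was tested, and members named here that are neither the lowest nor the highest of a list were picked after their values were seen.

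Genes of the RNA polymerases and general transcription had the lowest median difference, -1.32 in 15 pairs. The median RSEI at 30 min was -1.81 in their first introns and 1.30 in their second. The first intron was negative in 9 pairs and the second in 3, and 6 pairs had a lower first intron with separate intervals against 1 with a higher one. The 9 and the 6 include *srb8*, whose first junction matches no annotated intron and was already 83.3% unsplit at 0 min. Besides *ell1* these included *rpb3* (80.6% unspliced in the first and 13.6% in the second intron), a subunit of RNA polymerase II, and *mcs2* (89.3% and 28.1%), the cyclin of TFIIH. *med20* of the mediator complex was low in both introns (90.2% and 79.2%), and *rpb5* had the highest mean RSEI of the list.

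Cytosolic ribosomal protein genes had a positive RSEI in all 11 first introns and a negative one in 3 second introns, those of *rps2501*, *rps3* and *rpl701*, of which the last 2 are the unmatched junctions above. The first intron was higher with separate intervals in 7 pairs and lower in 1, *rps27*, with 13.9% unspliced in the first and 2.49% in the second intron. The 7 include *rps3* and *rpl701* with their unmatched second junctions. *rpl3802* had the highest mean, with 2.94% and 4.93%. All 9 pairs of translation factors were positive in the first intron and 3 were negative in the second, of which the junction of *SPAC29A4.02c* is unmatched and had no split read at any time.

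Mitochondrial ribosomal protein genes were split evenly, with 4 of 10 pairs negative in the first intron only, 4 in the second only and none in both. The first introns of *mrp17*, *mrpl3*, *rsm19* and *mrp2* were negative, and the second introns of *mrpl38*, *mrpl51*, *rsm27* and *mrpl39*. In *mrpl39* the first intron was 3.73% and the second 84.6% unspliced at 30 min. *SPCC777.17c*, for a protein of the large subunit, was nearly equal, with 25% and 25.6%.

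Proteasome genes had 7 of 9 pairs positive in both introns. The 3 pairs with separate intervals, *pre6*, *rpn6* and *pup1*, all had a lower first intron, while the median difference of the list was 0.38 and so ran the other way. *rpn3* of the 19S cap was the highest (5.86% and 7.78%) and the assembly chaperone gene *SPBC16E9.19* the lowest (87.5% and 88.2%), with its second intron in the 3’ UTR. Splicing factor genes numbered 20 pairs, with 7 negative first introns, including the unmatched one of *snu23*, and 9 negative second introns, and 5 and 7 pairs negative in the first or second intron only. *smd1*, for a core protein of the snRNPs, was the highest (10.3% and 14.6%) and *uap2* the lowest.

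Genes of respiration, ATP synthase and the V-ATPase had 6 pairs with a lower first and 6 with a higher first intron among 18. They were lowest in *cox20*, an assembly factor of cytochrome c oxidase (95.9% and 71.4%), and highest in *atp5* (10.9% and 13.3%). Among 21 pairs of vesicle traffic genes the first intron was lower with separate intervals in 6 and higher in 3, with *sec1* lowest (76.5% and 91.1%) and the SNARE gene *bet1* highest (5.70% and 5.18%). The 12 cytoskeleton pairs were called in 6 and 4. Profilin, encoded by *cdc3*, had 59.4% and 20.8% unspliced, and cofilin, encoded by *adf1*, 6.58% and 9.88%, the highest mean of its list. *SPAC12B10.04*, annotated as a tubulin-tyrosine ligase, had the lowest (88.7% and 90%).

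Ubiquitin genes had 5 pairs with a lower and 3 with a higher first intron among 23, the unmatched pair of *pof4* among the 3, chromatin and kinetochore genes 5 and 5 among 23, protein kinases and their regulators 3 and 3 among 10, and DNA replication and repair 1 and 2 among 11. Within the ubiquitin list *nse2*, a SUMO ligase of the Smc5-6 complex, was highest (18.3% and 3.08%) and *mms1* lowest (84.2% and 87.1%). For chromatin these were *ssr4*, for a subunit of the SWI/SNF and RSC remodellers (18.2% and 2.97%) and the histone acetyltransferase gene *mst2* (95.5% and 51.1%). For the kinases they were the autophagy gene *atg13* (0%, 0 to 20.6, and 15.4%, 5.86 to 30.5) and the RIO kinase gene *SPAC10F6.10* (89.2% and 33.8%). For replication they were *drc1*, a gene of replication initiation (0%, 0 to 8.04, and 42.7%, 31.3 to 54.6), and *elg1*, of a replication factor C complex (71.0% and 92.3%).

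**Figure D4:**
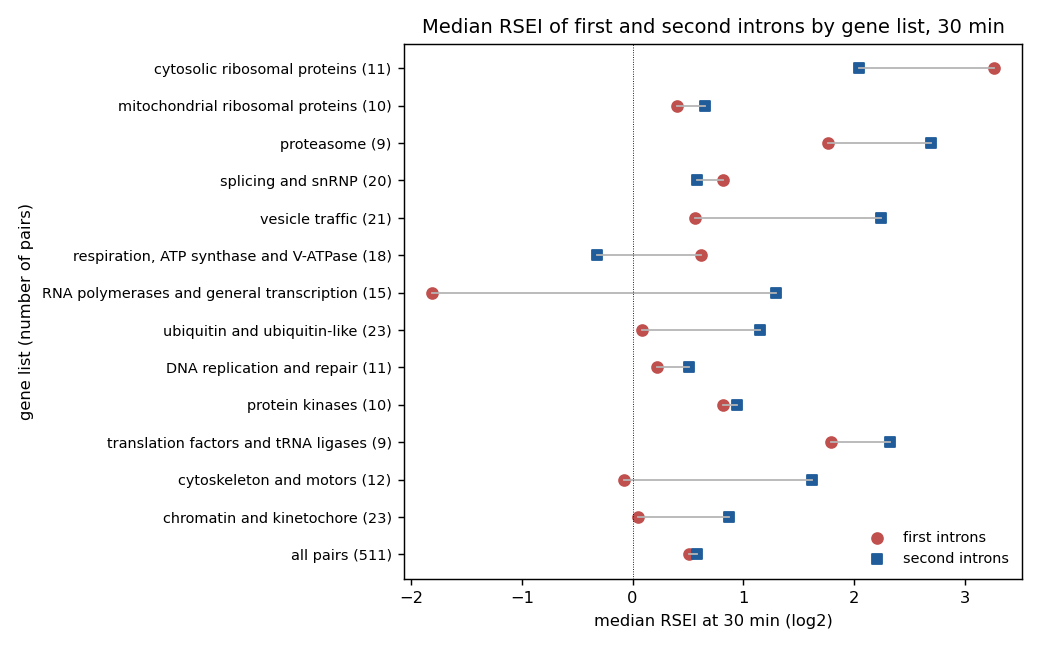
Median RSEI at 30 min of first introns (red circles) and second introns (blue squares) for each gene list, with the number of pairs in brackets and all 511 pairs at the bottom. The widest gap is that of the RNA polymerases and general transcription (-1.81 and 1.30), where all pairs together have 0.51 and 0.58.

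The bases at the 5’ SS were compared between first and second introns. Both introns of 498 genes match an annotated intron, and each of these introns has G and T at +1 and +2. U1 pairs were counted as matches to CAGGTAAGT at positions -3 to +6, on the transcript strand. Their number was 6.16 ± 0.96 in first and 6.28 ± 0.94 in second introns (mean ± SD over 498 introns each), and 6.20 ± 0.96 in the 4253 matched kept junctions of the table. A G at -1, the last exon base, stood in 58.0% of first and 58.2% of second introns, and in 57.3% of all. A G at +5 stood in 88.0% of first and 93.4% of second introns, and in 88.8% of all. The first intron had fewer U1 pairs than the second in 210 genes and more in 162. A T at +6 stood in 63.1% of first and 69.5% of second introns, a C at -3 in 19.9% and 14.5%, and GTAAGT at +1 to +6 in 24.5% and 30.7%. First introns had a median length of 57 nt and second introns 63 nt. In 486 of the genes both introns lie in the coding sequence, and 12 first introns lie in the 5’ UTR.

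Within a gene, the intron with more U1 pairs was more often the better spliced at 30 and 60 min. Among 372 genes whose introns differ in this number, it had the higher RSEI in 209 (56.2%, 51.0 to 61.3) at 0 min, 242 (65.1%, 60.0 to 69.9) at 30 min and 240 (64.5%, 59.4 to 69.4) at 60 min. The median difference, more minus fewer pairs, was 0.27, 0.84 and 0.91 at these times. In introns I and II of the genes with 3 or more junctions, the same count at 30 min was 248 of 357 (69.5%, 64.4 to 74.2). A relation of U1 pairs to splicing had been seen over the introns of the whole table when these pairs were chosen, so this count is not independent support.

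The size of the difference varied with the number of pairs. Where the first intron had at least 3 pairs fewer than the second (14 genes), the median first minus second RSEI at 30 min was -2.25 and the first intron was lower in 12. With 1 pair fewer (143 genes) the median was -0.84, with equal pairs (126 genes) 0.06 and with 1 pair more (103 genes) 0.52. With 2 more (46 genes) it was 1.77, and with at least 3 more (13 genes) 1.90, with the first intron higher in 12. The step at 2 pairs fewer (53 genes) was out of order with -0.30. In untreated cells the medians of all these groups lay between -0.45 and 0.47. Across the 498 genes the difference in pairs and the difference in RSEI had a Pearson r of 0.10 and a Spearman rho of 0.10 at 0 min, and 0.34 and 0.34 at 30 min.

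**Figure D5:**
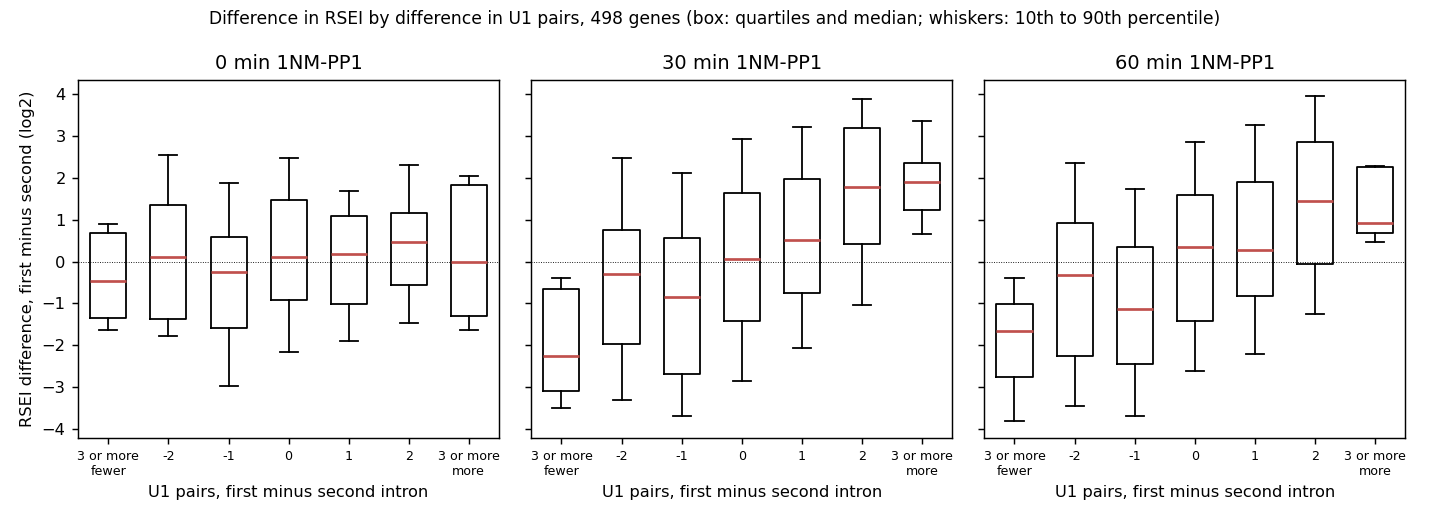
First minus second RSEI (log2) by the difference in U1 pairs between the introns, at 0, 30 and 60 min in 498 genes. Boxes give quartiles with the median in red and whiskers the 10th and 90th percentiles, and the medians at 30 min run between -2.25 at the left end and 1.90 at the right end.

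By position, G at -1 and G at +5 went with the better spliced intron. Where only 1 of the 2 introns has G at -1 (251 genes), that intron had the higher RSEI in 135 at 0 min (53.8%) and in 170 at 30 min (67.7%, 61.6 to 73.5), with a median difference of 0.19 and 0.85. Where only 1 has G at +5 (85 genes), it was higher in 42 at 0 min (49.4%) and in 58 at 30 min (68.2%, 57.2 to 77.9), with a median of -0.04 and 1.10. At +6 a T went with a higher RSEI in 118 of 216 genes at 30 min (54.6%, 47.7 to 61.4) and in 128 at 60 min (59.3%, 52.4 to 65.9). For A at -2, +3 and +4 and C at -3 the interval of the share at 30 min included 50%. At +3 only 48 genes differ in this base, and the interval was wide (35.2 to 64.8).

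Introns with both G bases had a negative RSEI at 30 min in 26.5% of 234 first introns and 25.9% of 259 second introns. With 1 of the 2 G bases this was 51.0% of 259 first and 52.3% of 237 second introns. So at a given make-up of these positions, the first and second introns of the genes had nearly the same share of negative values. In the 179 matched genes with opposite signs at 30 min, the negative intron had fewer U1 pairs in 103 (57.5%, 49.9 to 64.9), as many in 41 and more in 35. The 57.5% counts the 41 ties in its base. It cannot be set beside the 65.1% of 372 genes above, which leaves ties out. In these 179 genes G at -1 stood only in the positive intron in 67 and only in the negative one in 23.

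Some of the pairs printed above show these bases. In *pst2* and *SPBC4B4.01c* the spliced first intron has G at -1 and the retained second intron T, and in *ell1* the retained first intron has T at -1 and the spliced second intron G. Of the 14 matched pairs with the largest differences, the less spliced intron has fewer U1 pairs in 13 and as many in 1, *trm8*, and G at -1 stands in 4 of the less spliced and 13 of the better spliced introns. These pairs were chosen by that difference. Over all genes whose introns differ in U1 pairs, the less spliced intron had fewer in 242 of 372. Where only 1 intron has G at -1, it was the better spliced in 170 of 251. *acp1* has G at -1 and at +5 in both introns, and *SPBC13G1.14c* has G at +5 in both and at -1 in neither. By this count *mrp17* runs the other way, with 7 pairs in its retained first intron and 6 in its second. The count gives every position the same weight and leaves out wobble pairs. The paper treats the exon positions separately and includes a wobble pair, and it reads both introns of *mrp17* as following its pairing rule. A count weighted by position was not made here. *prp10* has G at -1 in both introns but lacks G at +5 and T at +6 in the retained second intron.

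Length and the branch pentamer, which was inferred from sequence and not mapped, showed no such relation in these pairs. The longer intron of a gene had the higher RSEI at 30 min in 249 of 495 genes (50.3%, 45.8 to 54.8). The branch was taken as the last pentamer of pyrimidine, T, any base, A and pyrimidine in the final 40 nt whose A lies at least 6 nt before the intron end, a rule set after overlaps with the 3’ SS were seen. Such a pentamer was found in 493 first and 494 second introns and in 99% of the 4253 junctions. It read CTAAC in 36.9% of first and 46.8% of second introns, and in 39.0% of all. Where only 1 of the 2 introns has CTAAC (237 genes), that intron had the higher RSEI at 30 min in 108 (45.6%, 39.1 to 52.1). The third base of the branch is a position that the paper mutated. A *res1* reporter otherwise spliced without Prp4 activity came to need it after a change from A to U there. Where only 1 intron has A there (162 genes), it was higher in 91 at 0 min (56.2%, 48.2 to 63.9). At 30 min it was higher in 73 (45.1%, 37.2 to 53.1). The intron with more reads at 0 min was the better spliced at 30 min in 295 of 494 genes (59.7%, 55.2 to 64.1), and its part in the differences above was not tested.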

How the data were processed

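RNA from *prp4-as2* cells, 1 library per time, was sequenced by the authors from directional libraries. Adapters were removed with TagDust, reads were aligned with TopHat to the annotation Ensembl ASM294, and uniquely mapped reads were kept; the submitters' notes also name SAMtools. The authors counted split and unsplit reads in the 3 bases at each 5’ exon junction, and these counts were deposited without normalization. The deposited log2 values (RSEI) equal log2 of split over unsplit reads after 1 is added to both, and were used as deposited.

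Introns were matched to RefSeq ASM294v3, which may differ from the annotation used by the authors, by gene and 5’ SS. Pairs were kept with more than 10 reads in every count. Unmatched junctions carry no sequence. Introns shorter than 20 nt in the reference were not used. Exact 95% intervals of the unspliced share and of shares of genes were computed with Python 3.11.15, numpy 2.4.6, pandas 2.3.3 and scipy 1.17.1, and plots with matplotlib 3.10.9. The calls were tested on simulated data. At least 30 reads per count were required of named pairs other than those the study names and the extremes of the lists.

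Named pairs are the member genes the study names, the 8 with the lowest and the 8 with the highest difference at 30 min, the 4 lowest and 4 highest by mean RSEI, the 4 largest changes of the difference in each direction, and the lowest and highest of each of 13 lists. Other list members, *rps2502* and the unmatched junctions were named after their values were seen. Lists were made from annotation text and symbols, and 9 text matches of another function were left out by hand. The members and lists were chosen with earlier results of these data known. Alternatives changed the read minimum, the added count, the gene models, the location of the introns, the requirement on untreated cells, the interval and the positions counted as U1 pairs. Expression per gene was not computed, since junction reads alone were used.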

Additional observations from a re-analysis of the deposited data

How the results depend on the processing

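Results at 30 min were recomputed with other read minimums, 0.5 added to the counts, gene models of exactly 2 introns, coding introns only, pairs positive in untreated cells, Wilson intervals and U1 pairs at +3 to +6 only. Of 33 alternative values, 29 stayed within the limits set and 4 moved. With 0.5 added, the calls and the signs could not move, since they depend only on the read counts themselves. For called pairs the limit was set on their number, not on their share. With more than 50 reads per junction, 226 pairs were left, of which 72 had a lower and 72 a higher first intron with separate intervals (31.9% each, against 27.0% of the 511 pairs), and 31.0% had opposite signs, against 37.2%. With U1 pairs counted at +3 to +6 only, the intron with fewer pairs was the lower in 56.2% of 308 pairs, against 65.1% of 372. The lower counts follow from fewer pairs, and the cause of the lower shares was not tested. The median difference lay between 0.04 and 0.17 in all 6 alternatives. No paired analysis of libraries was possible because each time has 1 library, and none could be left out. The introns were paired within genes throughout. In the gene models with exactly 2 introns, opposite signs at 0 min stood in 16 of 496 genes, against 26 of 511.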

Other observations

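The genes were also grouped by the length of the exon between the introns. With a middle exon of up to 60 nt, 23 of 45 pairs had opposite signs at 30 min (51.1%, 35.8 to 66.3), and the Spearman rho of first and second RSEI across these genes was 0.12. With 61 to 150 nt it was 72 of 214 (33.6%, 27.3 to 40.4), with over 150 and up to 500 nt 58 of 167 (34.7%, 27.5 to 42.5), and with over 500 nt 26 of 72 (36.1%, 25.1 to 48.3). The interval of the shortest group overlaps those of the others. The bins were chosen with earlier results of these data known, and no test of the difference was made.

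In 5 genes both introns have the same bases from -3 to +6. Their RSEI at 30 min differed by 0.92 to 2.73, with separate intervals in 2 and opposite signs in 2. Over all 511 pairs the median size of the difference was 1.72, with separate intervals in 54.0% and opposite signs in 37.2%. The 5 genes are too few to be told apart from these values.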
